A study of Mus musculus with 23 samples.

Results

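The regions described here are stretches of chromatin that were called open in the duodenum of juvenile mice and in no other sample of the series. Open chromatin was mapped by ATAC-seq, in which a transposase inserts sequencing adapters into accessible DNA, and stretches with many insertions are called as peaks. Peaks of all 23 libraries were joined where they shared at least 1 bp. A region was kept if it lay on an autosome, held a peak in all 3 juvenile duodenum libraries and held none in the other 20 libraries. This gave 2913 regions of 144328 autosomal regions (2.02%), and they are called juvenile-only regions below. The number and strength of their peaks in juvenile duodenum, and their lack of a peak elsewhere, are what chose them, so these values are given as a description.

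Juvenile duodenum was the whole epithelial fraction of the duodenum, the stretch of small intestine that follows the stomach, at 12 days of age, before weaning. It was set against 7 other groups. Adult villus and adult crypt were villus and crypt fractions of the duodenum, separated by straining, at 90 days, and geriatric villus and geriatric crypt the same fractions at 21 months. Juvenile colon was taken at 15 days from 6 pooled animals per library, adult colon at 90 days and geriatric proximal colon at 21 months, each from 2 pooled animals per library. Each group had 3 libraries except geriatric proximal colon, which had 2. The sources used here give no strain, genotype or sex. Juvenile duodenum differed from the later duodenal groups both in age and in being unfractionated, so the effects of age and of fractionation cannot be told apart.

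Before weaning the intestine digests milk. Its enterocytes, the absorptive cells that cover the villi, take up whole milk proteins by endocytosis and carry lactase at their surface, and at weaning they are replaced by cells with enzymes for solid food. Villi carry these differentiated cells, and crypts hold the dividing cells that renew them. Accessible regions away from gene starts are often enhancers, short DNA elements that bind transcription factors and act on genes at a distance, and they differ between cell types more than gene starts do. Coordinates are those of the mm9 build. Genes and DNA sequence at the regions, and the gene loci that mark cell types, were not analysed here, so the cell types behind the peaks were not checked against markers.

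Juvenile duodenum libraries had 45258 to 52365 peaks and 16.7 to 22.9 M reads kept for peak calling. The other 20 libraries had 11355 to 60519 peaks and 14.4 to 47.9 M kept reads, so some of them were deeper or had longer lists. The shortest juvenile duodenum list, of 45258 peaks, was still longer than the shortest list of every other group, which had 43092 peaks or fewer. Juvenile duodenum also had the most autosomal regions called in every library of a group, 29928, against at most 26099, in adult villus. The authors extended each read to 88 to 100 bp in juvenile duodenum and to 68 to 210 bp elsewhere, per the file headers. Juvenile duodenum libraries 1 and 3 had 5 and 2 peaks on the Y chromosome, library 2 had 144 and the other 20 libraries had 88 to 193. The sex chromosomes were left out of every count of juvenile-only regions. Leaving them out does not make the groups alike in sex, and the part of sex in the autosomal counts was not tested.

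Juvenile duodenum had more regions to itself than any of the other groups. Of the 29928 autosomal regions with a peak in all 3 juvenile duodenum libraries, 9.73% had none elsewhere. By the same rule 174 regions were found only in adult villus (0.121% of all autosomal regions and 0.667% of those called in every adult villus library). Counts and shares in the same order were 25 for geriatric villus (0.0173% and 0.112%), 37 for adult crypt (0.0256% and 0.151%) and 98 for geriatric crypt (0.0679% and 0.406%). In the large intestine they were 11 for juvenile colon (0.00762% and 0.0963%), 512 for adult colon (0.355% and 3.05%) and 51 for geriatric proximal colon (0.0353% and 0.676%). With every list at its 11355 strongest peaks, juvenile duodenum had 556 and the other groups 12 to 297. Of the juvenile-only regions 184 (6.32%) overlapped these 556, which were thus largely a different set. The groups were not on an equal footing, since each later duodenal group had a counterpart of the same fraction at another age and juvenile duodenum had none. When the same tissue at the other ages was ignored, the counts, with their shares of the regions called in every library of the group, were 978 for adult villus (3.75%), 448 for geriatric villus (2.01%), 906 for adult crypt (3.70%) and 1056 for geriatric crypt (4.38%). For colon they became 80 for juvenile colon (0.700%), 790 for adult colon (4.70%) and 112 for geriatric proximal colon (1.49%).

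Sharing with the other libraries ran to both extremes. The 2913 juvenile-only regions were followed by 960 regions with a peak in exactly 1 other library and 754 with a peak in 2. From there the number per step stayed between 754 and 1665 up to 18 other libraries, then reached 2521 at 19 and 5174 at all 20. The step at 12 other libraries held 1665 regions, and in 989 of these the 12 were the later duodenum libraries.

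**Figure D1:**
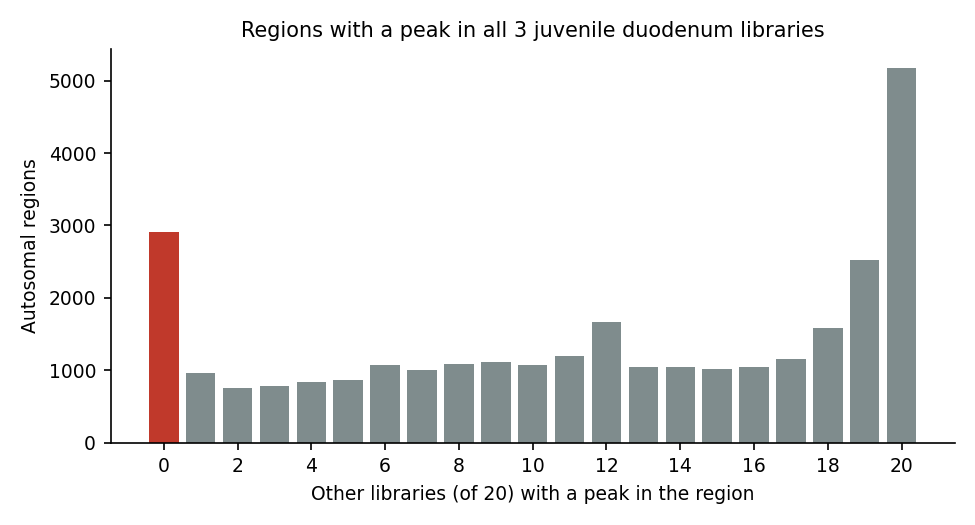
Number of autosomal regions with a peak in all 3 juvenile duodenum libraries (vertical axis, regions), by how many of the other 20 libraries also had a peak there (horizontal axis). The juvenile-only regions are the first bar, at 2913, and the regions called in every library the last, at 5174.

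Just outside the rule stood the 960 regions with a single other library. That library was of later duodenum far more often than of colon. Geriatric crypt library 1 accounted for 171 of them, adult villus library 1 for 156, adult crypt library 3 for 138 and adult villus library 2 for 109. Colon libraries accounted for between 1 and 43 each. Geriatric crypt library 1 and adult crypt library 3 also had the longest lists of all, 60519 and 57827 peaks, and the part of list length in these counts was not tested. The single peak in the other library had a median −log10 q of 4.59, and these regions had a median lowest −log10 q of 5.84 in juvenile duodenum, the same as the juvenile-only regions. Missing 1 juvenile duodenum library also kept regions out. A further 1436 regions lacked a peak in library 1, 450 in library 2 and 925 in library 3, with a peak in the other juvenile libraries and in nothing else.

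Where a region was shared with exactly 1 other group, adult villus and adult crypt were the most frequent partners. Of 1294 such regions, 453 had a peak in at least 1 adult villus library, 323 in adult crypt, 264 in geriatric crypt, 107 in geriatric villus, 99 in adult colon, 37 in juvenile colon and 11 in geriatric proximal colon. Few of them were called throughout the partner group, 34 for adult villus, 11 for adult crypt, 7 for geriatric crypt, 0 for geriatric villus, 16 for adult colon, 3 for juvenile colon and 1 for geriatric proximal colon. Each colon group lacked a peak at more of the 29928 regions called in all 3 juvenile duodenum libraries than any later duodenal group did. Of these 29928 regions, 15546 (51.9%) had no juvenile colon peak, 12556 (42.0%) no adult colon peak and 18794 (62.8%) no geriatric proximal colon peak. The numbers were 5490 (18.3%) for adult villus, 6667 (22.3%) for geriatric villus, 5614 (18.8%) for adult crypt and 6805 (22.7%) for geriatric crypt. Colon lists were shorter than duodenum lists, with 11355 to 32855 peaks against 35105 to 60519 in later duodenum, and the part of this in the difference was not tested.

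The choice of regions was set against libraries left out of it. The regions were those merged from all 23 libraries, so a library left out still shaped where they began and ended. Each library was left out in turn, the regions were chosen from the rest, and the share with a peak in the library left out was counted. Regions chosen from juvenile duodenum libraries 2 and 3 had a peak in library 1 in 67.0% of 4349 cases (95% Wilson interval 65.6 to 68.4). Those chosen from libraries 1 and 3 had one in library 2 in 86.6% of 3363 (85.4 to 87.7), and those from libraries 1 and 2 had one in library 3 in 75.9% of 3838 (74.5 to 77.2). The mean was 76.5% ± 9.83 (SD, n = 3). These 3 shares restate the counts above of regions that lacked a peak in 1 juvenile duodenum library. When a library outside juvenile duodenum was left out, the share with a peak in it was 1.59% ± 1.76 (SD, n = 20), at most 5.54%, in geriatric crypt library 1. It was 0.716% to 5.54% over the 12 later duodenum libraries and 0.0343% to 1.45% over the 8 colon libraries. The juvenile and the other shares did not overlap, but they were not measured on regions chosen alike. A juvenile library left out met regions chosen for a peak in the other 2 juvenile libraries. Any other library left out met regions chosen for no peak in the remaining ones outside juvenile duodenum, its own replicates among them. The rule itself can set much of this gap, so nothing is read from it. The intervals cover counting error only and treat regions as independent. Neighbouring regions are not independent, so the intervals can be too narrow.

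The same was done for the regions found only in each other group. Left-out shares averaged 44.9% ± 22.7 in adult villus, 29.1% ± 7.87 in geriatric villus, 25.5% ± 15.6 in adult crypt and 33.4% ± 23.2 in geriatric crypt (SD, n = 3 each). They averaged 22.2% ± 5.41 in juvenile colon and 71.8% ± 26.7 in adult colon (SD, n = 3 each), and were 14.4% and 5.72% in the 2 geriatric proximal colon libraries. Adult colon, with values of 42.1% to 93.8%, overlapped juvenile duodenum, with 67.0% to 86.6%.

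**Figure D2:**
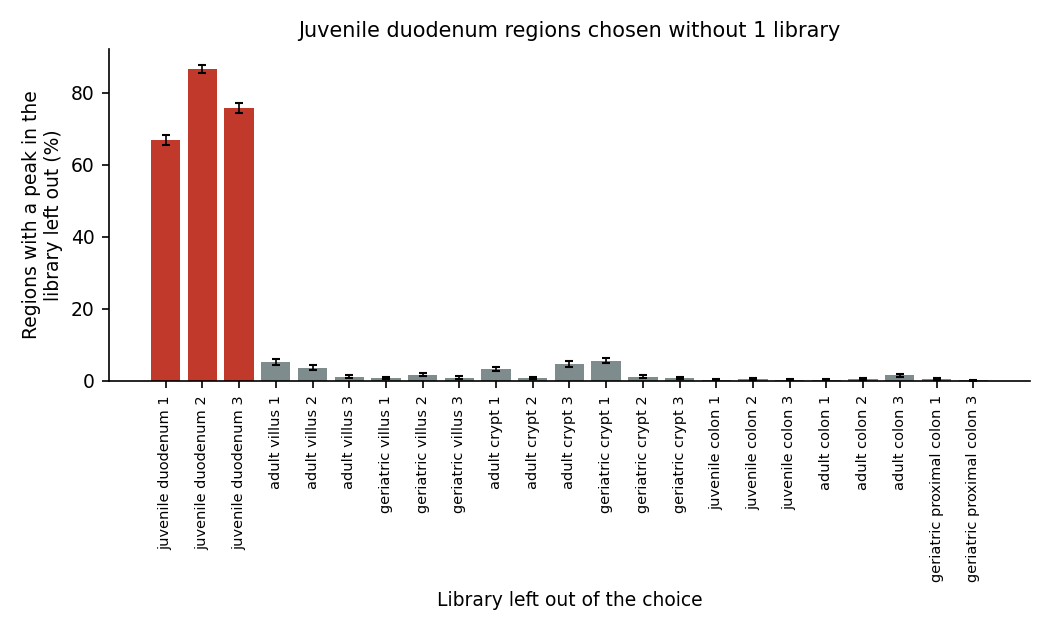
Share of regions (vertical axis, percent) with a peak in the library named on the horizontal axis, for juvenile duodenum regions chosen without that library; bars are single libraries and lines their 95% Wilson intervals. The 3 juvenile duodenum libraries lie at 67.0 to 86.6% and the other 20 at 5.54% or less. The intervals treat regions as independent, which neighbouring regions are not.

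Peaks at juvenile-only regions were of middling strength within their own libraries. The authors' −log10 q, a measure of how far a peak stands above the local background, had a median of 7.17 in library 1, 10.6 in library 2 and 8.74 in library 3 over the 2913 regions. The medians over all peaks of these libraries were 8.07, 9.54 and 9.13. Regions called in all 3 juvenile duodenum libraries and also elsewhere had medians of 12.1, 16.5 and 14.3. The authors' fold enrichment over local background had a median of 6.46 in library 1, 7.18 in library 2 and 6.87 in library 3 for juvenile-only regions, against 8.15, 8.73 and 8.75 for the others. The median number of extended reads at the summit was 13, 19 and 14 in the 3 libraries for juvenile-only regions and 18, 25 and 20 for the others.

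Juvenile-only regions were also narrow. Their median width was 253 bp (range 115 to 828), against 545 bp for the other regions called in all 3 libraries. A merged region widens with the number of libraries joined, so the peaks of single libraries are the closer comparison: their median length was 170, 216 and 190 bp in libraries 1, 2 and 3 at juvenile-only regions and 223, 268 and 244 bp at the others. All juvenile-only regions together covered 790 kb. The 3 summits lay within 53 bp of each other at the median juvenile-only region and within 48 bp at the median of the others. Across regions, the fold enrichments of 2 juvenile duodenum libraries had Spearman correlations of 0.530 to 0.602 over the 2913 juvenile-only regions and 0.757 to 0.781 over the 27015 others. These are descriptions across regions of the same libraries.

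Strong juvenile duodenum regions were less often juvenile-only than weak ones. Each region was ranked by the lowest of its 3 −log10 q values and the ranking was divided at its deciles into 10 bins, which held 2816 to 3169 regions because of ties. In the weakest bin 18.2% of regions were juvenile-only and 0.970% were called in all 20 other libraries, while in the strongest bin the shares were 1.24% and 74.5%. The juvenile-only share was highest in the second weakest bin, at 18.96%, and was lower in each stronger bin than in the one before it. The strong end was not empty: 592 juvenile-only regions had a −log10 q of at least 10 in every juvenile library, 109 at least 20 and 28 at least 30. At the weak end the last-ranked juvenile-only region, on chromosome 7 at 133003119 to 133003382, had −log10 q values down to 1.32, close to the authors' limit. The next to last, on chromosome 3 at 127522302 to 127522497, had a lowest value of 1.42.

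**Figure D3:**
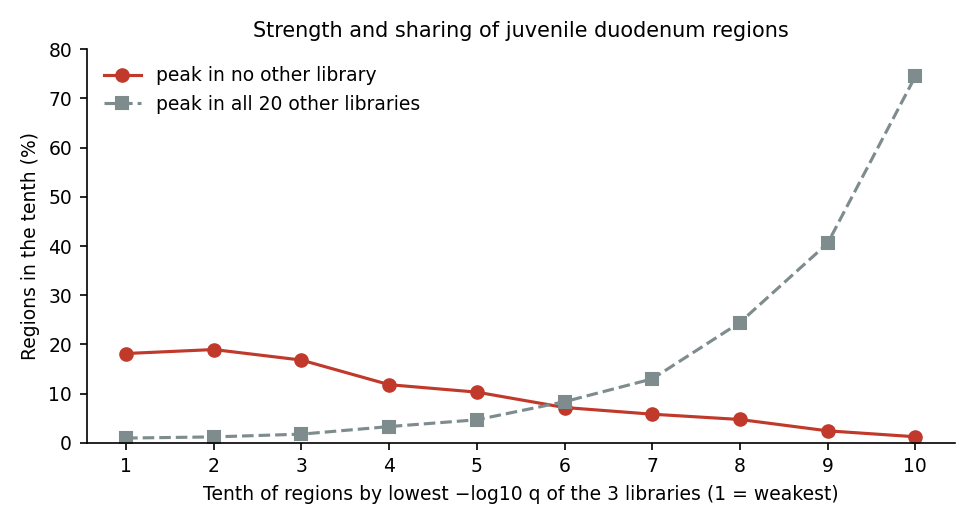
Share of the 29928 regions called in all 3 juvenile duodenum libraries (vertical axis, percent) with a peak in none or in all 20 of the other libraries, in the 10 decile bins of the ranking on the lowest −log10 q (horizontal axis). The juvenile-only share was 18.2% in the weakest bin and 1.24% in the strongest, and the share called everywhere 0.970% and 74.5%.

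The strongest juvenile-only region lay on chromosome 6 at 121572461 to 121572982. Its −log10 q was 56.4, 52.8 and 47.6 in juvenile duodenum libraries 1, 2 and 3, with fold enrichments of 18.7, 15.6 and 15.7 and summits within 16 bp. The second, on chromosome 10 at 6526927 to 6527251, had −log10 q values of 45.4, 44.9 and 48.4 and fold enrichments of 19.1, 16.1 and 18.7. Both were even across the 3 libraries and had no peak in the other 20. The third lay on chromosome 7 at 94452215 to 94452860, with −log10 q values of 51.7, 54.7 and 43.2. The fourth, on chromosome 17 at 59509186 to 59509793, was less even, at 42.8, 66.2 and 56.3. The fifth, on chromosome 1 at 18512976 to 18513327, had 49.1, 57.3 and 40.8. Library 2, the deepest of the 3, had the highest value in the last 3 of these 5 regions.

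The 20 strongest juvenile-only regions had lowest −log10 q values of 33.0 to 47.6 and fold enrichments of 12.1 to 19.1. Their 3 summits were never more than 168 bp apart. Of these 20, 15 had another juvenile-only region within 50 kb. The region on chromosome 6 at 65006664 to 65007440, next to the widest at 777 bp, had a lowest −log10 q of 6.46, near the median of 5.84 over all juvenile-only regions. Equally strong signal in juvenile duodenum could come with a trace elsewhere: the region on chromosome 15 at 40986765 to 40987322 had −log10 q values of 53.4, 55.5 and 59.2 in juvenile duodenum and missed the rule through 1 peak in adult crypt library 2, with a −log10 q of 4.30. On chromosome 15 at 16422559 to 16423098 the values were 40.2, 61.7 and 43.8, and adult villus library 2 had a peak of 6.53.

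Juvenile-only regions lay near each other. The nearest other juvenile-only region was 89.7 kb away at the median, against 225 kb from the other regions called in all 3 libraries, and 18.8% of juvenile-only regions had another within 10 kb, against 6.19%. When regions no more than 50 kb apart were joined, 1187 juvenile-only regions (40.7%) fell into 480 runs of at least 2, and 1726 stood alone. There were 17 runs of 5 or more regions, which held 108 regions. Peaks were joined only where they overlapped, so a run can count close pieces as separate regions. On chromosome 3, for example, 80584373 to 80584625 and 80584754 to 80585371 were counted apart. Runs were not counted again with peaks within 500 bp merged. Juvenile-only regions lay farther from regions called in all 23 libraries, at a median of 142 kb against 80.4 kb for the others. These distances are a description, because neighbouring regions are not independent.

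The 10 longest runs, ranked by number of regions, held 73 juvenile-only regions and spanned 43.9 to 165 kb each. Of 9 runs tied at 5 regions, 2 entered these 10, taken by chromosome name and position. The longest, on chromosome 7 from 94394991 to 94560198, held 12 regions in 165 kb, among them the third strongest of all. A second strong region in it, at 94470670 to 94470985, had −log10 q values of 34.0, 59.0 and 44.0. The weakest of the 12, at 94394991 to 94395385, had 7.32, 11.8 and 3.599. Between these 12 regions the juvenile duodenum libraries had 1 to 4 further peaked regions each, and each of the 20 other libraries had at most 1.

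The densest of the long runs lay on chromosome 3 from 80563095 to 80607017, with 10 juvenile-only regions in 43.9 kb. Its strongest region, at 80573387 to 80573960, had −log10 q values of 33.0, 24.6 and 22.0, and the median over the run of the lowest value was 7.64. No library outside juvenile duodenum had any peak in this run. On chromosome 1 from 18459704 to 18523746, 8 regions spanned 64.0 kb and included the region at 18512976 to 18513327 named above. Outside its juvenile-only regions no juvenile duodenum library had a peak and the other libraries had at most 1 each, in geriatric villus. A run of 8 on chromosome 12, from 59252970 to 59333745, differed in lying among regions open in other tissues: it had 11 other regions inside, with 2 to 3 called in each adult colon library and 2 to 3 in each geriatric crypt library. Its strongest region, at 59299604 to 59300119, had 35.8, 48.9 and 44.3. None of the other 20 libraries had more than 1 peaked region in 6 of the 8 runs of at least 6 regions, which the tie does not touch, and in 10 of all 17 runs of at least 5.

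**Figure D4:**
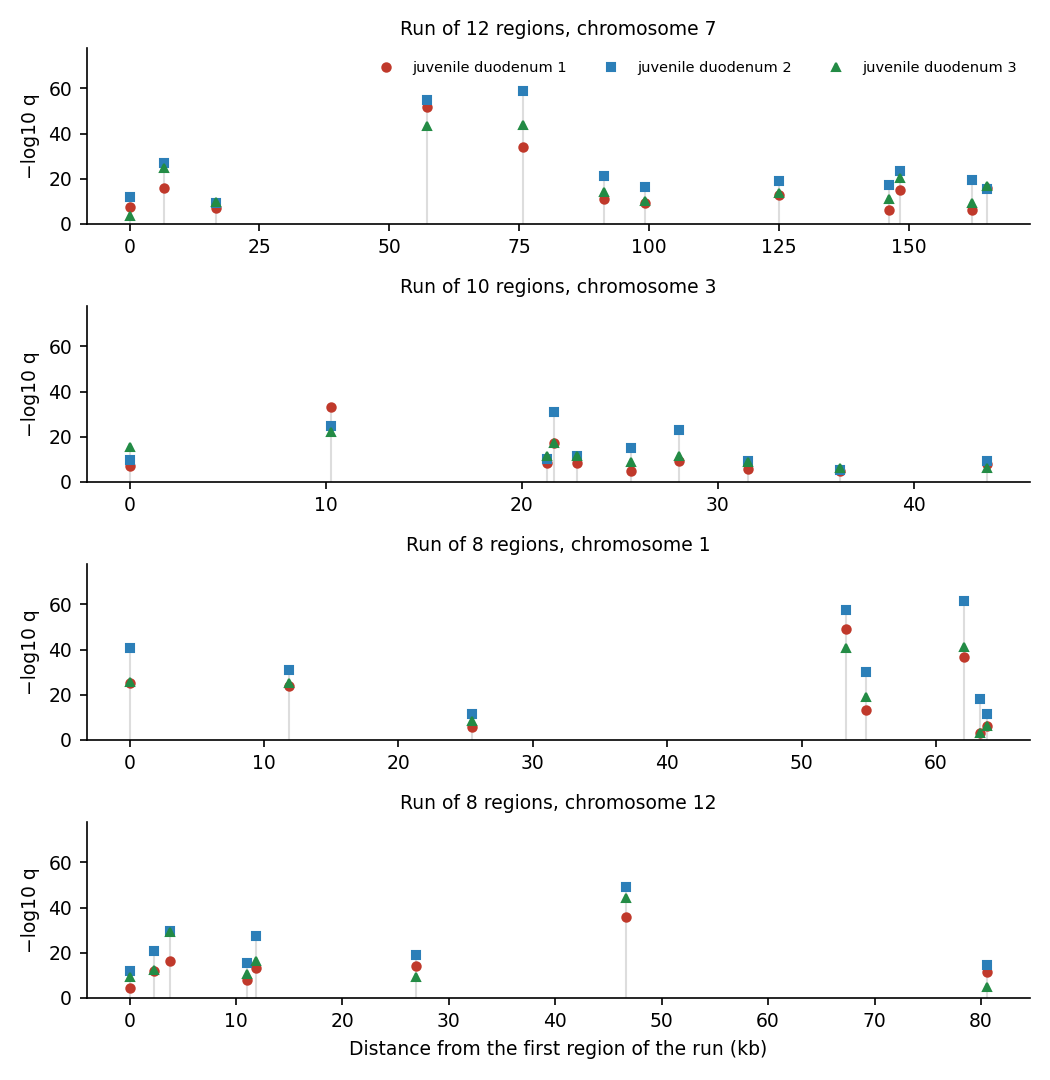
The 4 longest runs of juvenile-only regions, each in its own panel, by distance from the first region of the run (horizontal axis, kb) and −log10 q of the peak in each of the 3 juvenile duodenum libraries (vertical axis; points are single libraries). The run on chromosome 7 has 12 regions in 165 kb and that on chromosome 3 has 10 in 43.9 kb.

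The surroundings of the juvenile-only regions held juvenile duodenum peaks more often than later duodenum peaks. This is a description with no test: the same libraries chose the regions, and neighbouring peaks of a library are not independent of its peaks at the regions. For every library the share of juvenile-only regions with another peak of that library within 10 kb was counted, leaving out the juvenile-only regions themselves. It was 52.6%, 61.1% and 56.7% in juvenile duodenum libraries 1, 2 and 3. In adult villus libraries 1, 2 and 3 it was 43.8%, 42.3% and 37.8%, and in geriatric villus 36.1%, 39.2% and 36.3%. In adult crypt it was 45.01%, 36.1% and 46.9%, and in geriatric crypt 46.7%, 38.7% and 35.9%. Every juvenile duodenum library stood above every later duodenum library in this share, and the part of list length in it was not tested. Colon libraries had lower shares, of 18.98% to 22.9% in juvenile colon, 22.97% to 30.6% in adult colon, and 18.9% and 11.7% in geriatric proximal colon.

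Juvenile duodenum averaged 56.8% ± 4.24 (SD, n = 3) and the 12 later duodenum libraries 40.4% ± 4.30 (SD, n = 12), a difference of 16.4 percentage points. Against single groups the difference was 15.5 points for adult villus, 19.6 for geriatric villus, 14.1 for adult crypt, 16.4 for geriatric crypt, 35.9 for juvenile colon and 29.9 for adult colon. Against geriatric proximal colon it was 41.5 points.

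The gap was wider around juvenile-only regions than around other juvenile duodenum regions. Around the other regions called in all 3 juvenile duodenum libraries, the shares were 58.7%, 64.5% and 62.3% in juvenile duodenum and 50.1% to 65.2% in the 12 later duodenum libraries, so that the groups overlapped. The share around juvenile-only regions minus that around the others was -5.01 percentage points ± 1.40 (SD, n = 3) in juvenile duodenum and -17.3 points ± 2.21 (SD, n = 12) in later duodenum. Juvenile duodenum thus also had lower shares around juvenile-only regions than around the others. The others were chosen to have a peak outside juvenile duodenum and the juvenile-only regions to have none, so the rule itself can set these differences. Some flanking regions were themselves never called outside juvenile duodenum. With these left out the difference around juvenile-only regions from later duodenum was 7.59 points, and the groups overlapped: juvenile duodenum had 46.5%, 49.2% and 48.3%, against 46.9% in adult crypt library 3 and 46.7% in geriatric crypt library 1. With every list at its 11355 strongest peaks the difference was 4.66 points. No other region lay within 10 kb of 599 juvenile-only regions (20.6%), against 11.5% of the others.

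**Figure D5:**
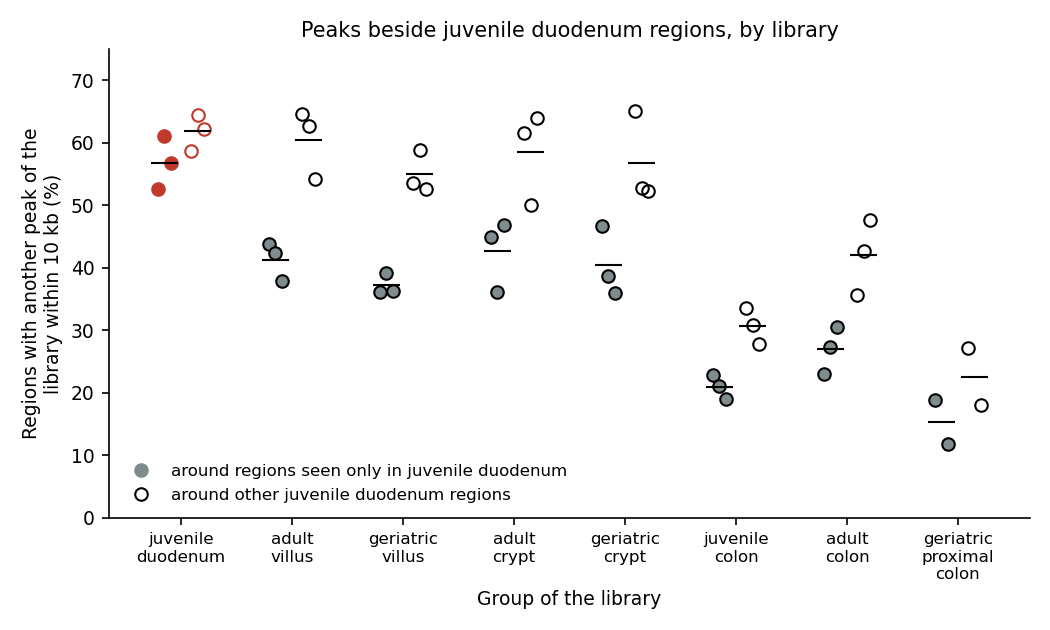
Share of regions with another peak of the same library within 10 kb (vertical axis, percent), by group (horizontal axis). Filled points are single libraries around juvenile-only regions, open points the same libraries around the other regions called in all 3 juvenile duodenum libraries, and lines the group means; around juvenile-only regions juvenile duodenum lies at 52.6 to 61.1% and later duodenum at 35.9 to 46.9%.

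Juvenile-only regions were spread over all 19 autosomes but not evenly. They made up 4.74% of the regions called in all 3 juvenile duodenum libraries on chromosome 19, 6.23% on chromosome 11 and 7.14% on chromosome 17. The highest shares were 12.8% on chromosome 3, 12.6% on chromosome 18 and 12.4% on chromosome 12, and chromosome 3 held the most, with 239 regions. Regions called in every library made up 22.4% on chromosome 11, 22.0% on chromosome 17 and 18.4% on chromosome 19, against 14.1% on chromosome 3.

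The authors' deposited lists name regions that differ between 2 groups, and they were made from the same libraries, so their direction is not independent evidence here. The authors' deposited table of regions higher in juvenile duodenum than in adult villus held 2193 of the 2913 juvenile-only regions (75.3%), against 16.7% of all regions called in the 3 juvenile libraries and 4.44% of all autosomal regions. The authors' deposited table against geriatric villus held 1769 (60.7%), against 12.3% and 3.16%. That against juvenile colon, in the authors' deposited table, held 1106 (38.0%), against 17.5% and 3.81%. Because the absence of peaks in these groups chose the regions, nothing is read from these shares.

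Juvenile-only regions on fewer of these 3 deposited lists of the authors had lower −log10 q values in juvenile duodenum. All 3 lists held 894 regions (30.7%), 2 held 857, 1 held 672 and none held 490 (16.8%). The median lowest −log10 q was 10.1 in regions on all 3 lists, 5.84 on 2, 4.80 on 1 and 4.53 on none. The 20 strongest juvenile-only regions were on all 3 lists. Of the 73 regions in the 10 longest runs, 71 were on the list against adult villus, 69 on that against geriatric villus and 53 on that against juvenile colon. No matching counts over other regions are given for these joint counts or for the runs. The same libraries chose the regions and gave their strengths and the lists, so nothing is read from these counts.

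Of the 22 lists in the authors' deposited tables that do not involve juvenile duodenum, each of which held 0.0256% to 5.69% of all autosomal regions, 2 held any juvenile-only region, and both compare adult with geriatric villus. The authors' deposited table of regions higher in geriatric villus held 9 (0.309% of the juvenile-only regions). It held 0.0443% of all autosomal regions and 0.0635% of those called in the 3 juvenile libraries. The authors' deposited table of regions higher in adult villus held 3 (0.103%), against 0.0256% and 0.0668%. No villus library had a peak at these regions. Among the 9, a pair lay in the 10 longest runs, on chromosome 1 at 18459704 to 18460010, with −log10 q values of 25.1, 40.6 and 25.4 in juvenile duodenum, and on chromosome 16 at 59071576 to 59071894, with a lowest value of 26.3. The authors' deposited table of regions higher in juvenile colon than in juvenile duodenum held 1 juvenile-only region (0.0343%). It held 4.01% of all autosomal regions and 11% of those called in the 3 juvenile libraries. The juvenile-only region lay on chromosome 1 at 90134032 to 90134234 and was weak in juvenile duodenum, with a lowest −log10 q of 2.44. The regions in this paragraph were picked after seeing their values.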

How the data were processed

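The authors called peaks in each library alone with MACS2 2.1.0.20150731, without a control, at a q cutoff of 0.05, keeping 1 read per position and taking the local background over 10 kb, per the file headers. The submitters' processing notes name the mm9 build, and the sources used here give no alignment settings. Each deposited peak carries, per the file headers, a pileup signal that is not scaled to depth, a −log10 p-value and q-value, and a fold enrichment, which is the ratio of pileup to local background. The authors' 28 deposited lists give regions higher in 1 group of a pair, and the sources used here do not give their model or threshold.

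Groups were taken from the sample titles. The series description calls the replicates biological, and each SD measures only the spread between these libraries. Peaks were joined at 1 bp of overlap with Python 3.11.15 and pandas 2.3.3, and the joining was tested on simulated data. In a region with several peaks of a library the one with the highest −log10 q was used. A permutation test of the shares of regions with a flanking peak had been planned. Its p-values are not given, because the same libraries chose the regions. Named regions are the 20 strongest by lowest −log10 q, the 5 weakest, the 5 widest, the 10 runs with the most regions at gaps of up to 50 kb (ties by chromosome name and position) and the 5 strongest with 1 other library. The regions, lists and tests were chosen with earlier results of these data known. Genes and sequence were not analysed here. A lack of a called peak is not a measure of closed chromatin, since reads under the authors' cutoff are not in the peak lists.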

Additional observations from a re-analysis of the deposited data

How the results depend on the processing

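The count of 2913 juvenile-only regions was 2270 with a −log10 q of at least 5 in every library, 2560 when a peak had to cover 50% of the region, 2933 with 200 bp around summits and 2639 with peaks within 500 bp merged. It was 1757 when only juvenile duodenum peaks had to reach a −log10 q of 5, which removes peaks from that group alone. With each list at its 11355 strongest peaks it was 556, and 184 of the 2913 overlapped these. Leaving out each library in turn gave 2914 to 4348. Equal list length gave 33 regions for adult villus, 12 for adult crypt, 25 for geriatric crypt, 54 for juvenile colon, 266 for adult colon and 297 for geriatric proximal colon, and 20 for geriatric villus. Ignoring the same tissue at other ages, chosen after seeing the data, gave 978 for adult villus, 448 for geriatric villus, 906 for adult crypt, 1056 for geriatric crypt, 80 for juvenile colon, 790 for adult colon and 112 for geriatric proximal colon. The flanking difference kept its direction in all 113 alternative values over the 8 comparisons. These values rest on the libraries that chose the regions, and the rule itself can set the direction, so nothing is read from the tally. Against later duodenum the flanking difference was 4.66 to 18.5 percentage points over 23 alternatives. For this difference, leaving out a library only dropped it from the means, and the regions were not chosen again. The difference was then 13.4 to 17.6 points against adult villus and 17.5 to 21.7 against geriatric villus. It was 10.9 to 16.2 against adult crypt, 14.1 to 19.5 against geriatric crypt and 14.3 to 18.5 against later duodenum. In colon it was 33.7 to 38.0 against juvenile colon, 27.7 to 32.0 against adult colon and 37.9 to 45.1 against geriatric proximal colon. Flanks from 1 kb outwards, flanks without regions seen only in juvenile duodenum, the contrast with other regions, and villus and crypt taken apart were chosen after seeing the data. Deviations of same-numbered libraries of juvenile duodenum and each other group had correlations of −0.0257 to 0.0188 over 20 pairs. Each pair set juvenile duodenum against a group of another age, which shares no animal with it, so these values cannot show pairing. Whether villus and crypt libraries of the same age came from the same animals was not checked. With 3 libraries on each side a replicate block cannot change a difference of means. The differences of 15.5 points for adult villus and 35.9 for juvenile colon therefore stayed by arithmetic. Against geriatric proximal colon, with 2 libraries, the difference was 39.4 points with the block and 41.5 without it. At 50% cover the 3 counts in the authors' deposited lists were 2193, 1769 and 1106, as at 1 bp. With a −log10 q of at least 5 in every library, left-out shares averaged 75.1% ± 12.4 in juvenile duodenum (SD, n = 3) and 1.498% ± 1.98 in the other libraries (SD, n = 20). The planned look at genes and sequence was not run. No alternative varied read depth. Over all juvenile-only regions the median summit rested on 13 to 19 extended reads in the 3 juvenile duodenum libraries.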
